A study of Mus musculus with 4 samples.

Results

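The miRNAs miR-26a and miR-26b were followed in the RNA-induced silencing complex (RISC) of mouse brain. Members were the sequences carrying the name mmu-miR-26a-5p, mmu-miR-26b-5p or mmu-miR-26b-3p, the third being the passenger arm of the miR-26b hairpin. They comprised 668 of the 85704 sequences in the table, and these 3 names were among 1029 miRNA names. mmu-miR-26a-5p had 534 sequences, mmu-miR-26b-5p 125 and mmu-miR-26b-3p 9. The libraries came from cortex and hippocampus of C57BL/6 J (BL6) mice, with 2 libraries of young (2-month-old) and 2 of old (18-month-old) mice. No transgene and no agent is given for either age, and the methods name the mice as males. Short RNAs were recovered by Ago-RP-Seq, in which a GW182 peptide pulls down the Ago proteins with the RNAs they hold, and RNA of 19-35 nucleotides (nt) was cut from a gel before sequencing. The comparison asks which short RNAs the RISC of brain cells holds in young and in old mice. It is not given whether a library stands for 1 mouse or for several, so p-values measure the spread between these 4 samples.

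A mature miRNA guides an Ago protein to messenger RNAs that pair with its seed, the bases that follow the first one at its 5′ end. miR-26 is made from introns of Ctdspl, Ctdsp2 and Ctdsp1, genes for small phosphatases that work with the repressor REST to keep neuronal genes off outside neurons, and miR-26 is known to target transcripts of its own host genes as neurons form. Another known target is Ezh2, which encodes a histone methyltransferase. After processing, the 3′ end of a miRNA can be trimmed, and nucleotidyl transferases can add untemplated A or U to it. The uridylyl transferase Zcchc11 (TUT4) is known to act on miR-26.

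The mature sequences of RefSeq (GRCm38.p6) are shown first because the seed they share and the bases at which they differ define the family. Capitals mark seed positions 2 to 8, counted from 1 at the 5′ end.
mmu-miR-26a-5p: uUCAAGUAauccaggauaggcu
mmu-miR-26b-5p: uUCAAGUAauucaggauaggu
mmu-miR-26b-3p: cCUGUUCUccauuacuuggcuc
mmu-miR-26a-1-3p: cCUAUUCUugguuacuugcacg
mmu-miR-26a-2-3p: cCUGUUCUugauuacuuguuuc
The leading arms of miR-26a and miR-26b have the same seed and differ by C11U and C21U, the miR-26a base given first. The passenger arms of Mir26a-2 and Mir26b also share a seed, while that of Mir26a-1 differs from that of Mir26a-2 by A4G within it.

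miR-26a comes from 2 of the 3 hairpins. On GRCm38, Mir26a-1 lies at chr9:119031796-119031885 (plus strand), in intron 5 of 7 of a protein-coding transcript of Ctdspl. Mir26a-2 lies at chr10:126995530-126995613 (plus strand), in intron 5 of 7 of a protein-coding transcript of Ctdsp2. It also lies within an exon of 2 other Ctdsp2 transcripts, a protein-coding form and a retained-intron form. Mir26b lies at chr1:74394310-74394394 (plus strand), in intron 4 of 6 of a protein-coding transcript of Ctdsp1. mmu-miR-26a-5p itself spans chr9:119031811-119031832 and chr10:126995543-126995564, and its reads cannot be divided between these copies. mmu-miR-26b-5p spans chr1:74394324-74394344 and mmu-miR-26b-3p spans chr1:74394360-74394381.

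Depth was similar in the 4 libraries, with 9067007 to 11388999 reads behind the scale of CPM, the deposited read counts after scaling every library to an equal sum, so that 3 reads were worth 0.263 to 0.331 CPM. CPM is a share of the RISC-bound reads of a library, and in bulk tissue fewer cells of a type and less RNA per cell cannot be told apart. The marker miRNAs of neurons (miR-124-3p, miR-128-3p and miR-9-5p, 3 of 3 in the table) summed to 184377 and 195044 CPM in young mice and to 195706 and 169186 CPM in old mice. Choroid plexus and ependyma markers (4 of 4) summed to 2467 and 3000 CPM in young and 2499 and 3229 CPM in old mice. Those of other epithelium were miR-200a-3p, miR-200b-3p and miR-141-3p (3 of 3). They summed to 21719 and 38522 CPM in young mice and to 44208 and 51974 CPM in old mice. Those of endothelium (miR-126a-3p and miR-126a-5p, 2 of 2) summed to 12243 and 11472 CPM in young mice and to 5422 and 8990 CPM in old mice. Those of smooth muscle (miR-143-3p and miR-145a-5p, 2 of 2) summed to 6415 and 6559 CPM in young mice and to 5033 and 4915 CPM in old mice. Those of white blood cells (4 of 4) summed to 3139 and 3566 CPM in young mice and to 2767 and 2897 CPM in old mice. The sum of other epithelium was higher and the endothelial, smooth muscle and white blood cell sums were lower in old mice without overlap. The sums of neurons, choroid plexus and ependyma, oligodendrocytes and red blood cells (2 of 3 in the table) overlapped between the ages. Among the neuron markers, miR-124-3p alone was lower in old mice without overlap. It had 104115 and 107034 CPM in young mice and 98222 and 69405 CPM in old mice. The part of these marker levels in the miR-26 values was not tested.

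miR-26a was one of the most abundant miRNAs in the RISC at both ages. mmu-miR-26a-5p had 57567 and 48338 CPM in young mice and 72987 and 58521 CPM in old mice, and it ranked 2, 3, 2 and 2 among miRNA names in these libraries. mmu-miR-26b-5p had 2511 and 2198 CPM in young mice and 2821 and 2611 CPM in old mice, ranking between 58 and 70. Both leading arms were higher in each 18-month library than in each 2-month library, a pattern shown by 12.1% of the 456 names with a mean of at least 10 CPM. The 3 members together made up 6.01% and 5.06% of the reads in young mice and 7.58% and 6.12% in old mice.

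The difference in both leading arms did not hold up against the spread between replicates. For mmu-miR-26a-5p the mean was 52952 ± 6526 CPM (SD, n = 2) in young mice and 65754 ± 10229 CPM (SD, n = 2) in old mice. The limma fit of log2(CPM + 1) gave a log2 change of 0.31 with an SE of 0.23 (95% interval -0.25 to 0.87, adjusted p = 0.496). For mmu-miR-26b-5p the mean was 2354 ± 221 CPM (SD, n = 2) in young mice and 2716 ± 148 CPM (SD, n = 2) in old mice. The log2 change of miR-26b was 0.21 with an SE of 0.21 (95% interval -0.29 to 0.71, limma adjusted p = 0.582). Neither passed an unadjusted p of 0.05, which 4.17% of names passed in the upward direction, and 0.219% of names passed after adjustment in either direction.

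The size of these changes depended on the scale. The median log2 change of the 456 names was -0.22 on the CPM scale and -0.02 after rescaling by the median of ratios, and 13.4% of names had a log2 change at least as large as that of miR-26a. After rescaling the log2 change was 0.52 for miR-26a and 0.42 for miR-26b, and neither passed. By the quasi-likelihood test of edgeR, run on whole reads recovered from CPM, the log2 change of miR-26a was 0.54 with an unadjusted p of 0.05005, which also did not pass.

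**Figure D1:**
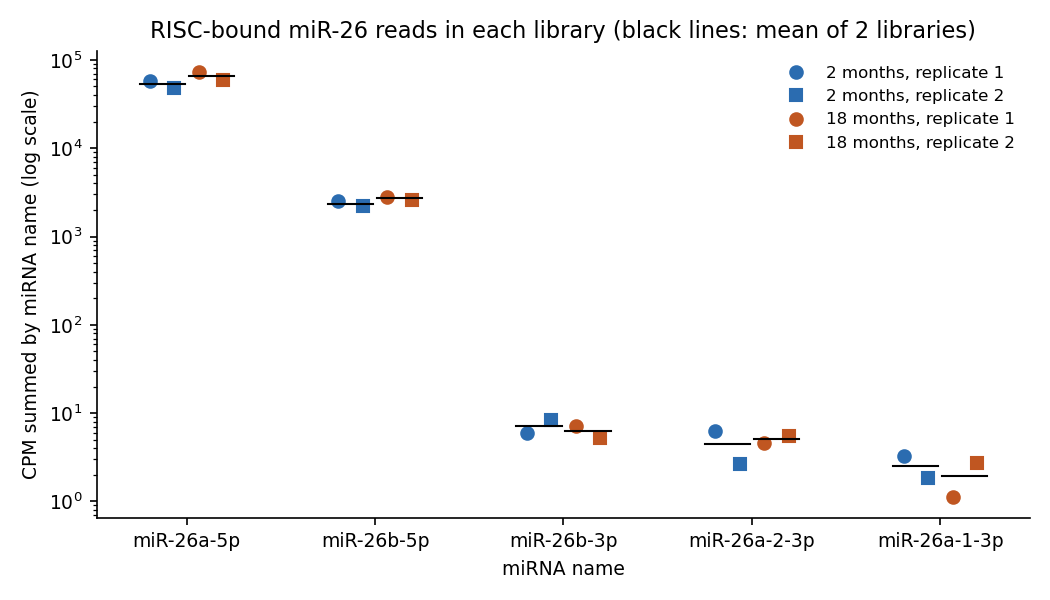
CPM of the 5 miR-26 names in each of the 4 libraries on a log axis, with circles and squares for replicates 1 and 2, blue for 2 months, orange for 18 months, and black lines at the mean of each age. mmu-miR-26a-5p lies between 48338 and 72987 CPM, mmu-miR-26b-5p between 2198 and 2821 CPM, and all 3 passenger arms below 10 CPM.

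The passenger arms were rare in the RISC. mmu-miR-26b-3p had 6.01 and 8.43 CPM in young mice and 7.19 and 5.29 CPM in old mice, from 63, 96, 76 and 48 reads. The ages overlapped (two-sided exact permutation p = 0.667), and the name was under the minimum of 10 CPM for the fit. The 2 passenger arms of miR-26a, which are not members, were as low, with 1.14 to 3.24 CPM for mmu-miR-26a-1-3p and 2.64 to 6.30 CPM for mmu-miR-26a-2-3p. mmu-miR-26b-5p exceeded its own passenger arm by 418- and 261-fold in young mice and by 393- and 493-fold in old mice, which overlap. Of 178 pairs of -5p and -3p names, miR-26b ranked 25 in the ratio of the more to the less abundant arm. Its fold was 377 against a median of 32.9. Pairs shared the rest of the name and had a mean of at least 100 CPM in the more abundant arm. miR-26a, whose passenger names carry a copy number, was not among them. mmu-miR-26a-5p exceeded the sum of both its passenger arms by 6035- to 12652-fold.

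The balance between the paralogs varied little. mmu-miR-26a-5p exceeded mmu-miR-26b-5p by 22.9- and 21.99-fold in young mice and by 25.9- and 22.4-fold in old mice. The ages overlapped, and the difference in log2 ratio was 0.10 (two-sided exact permutation p = 0.667, where 2 libraries against 2 cannot go below 0.3333). In 8 other pairs of related miRNAs that difference ran from -0.61 for miR-148a-3p over miR-148b-3p to 0.26 for miR-30a-5p over miR-30d-5p.

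Named reads of miR-26 seldom carried another seed. Positions 2 to 7 read UCAAGU in 99.0% of the reads of mmu-miR-26a-5p and in 98.9% of those of mmu-miR-26b-5p. Among 109 names of at least 1000 CPM, these shares of the leading seed ranked 3 and 7, against a median of 97.2%. Reads that began 1 base later, with the seed CAAGUA, made up 0.468% of miR-26a and 0.609% of miR-26b. All 9 sequences of mmu-miR-26b-3p had the seed CUGUUC. Reads of the full-length miR-26a form with a substitution at position 5, 6 or 7 carried no miRNA name. Such seeds are therefore outside these shares. Unnamed reads placed on mmu-miR-26a-5p amounted to 1.14% to 1.22% of its named reads.

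Each seed in the table has a viability score, the mean survival of 3 mouse cell lines carrying a short RNA with that seed, in percent of control. The leading seed of miR-26a and miR-26b, UCAAGU, has a score of 43%. The seed that begins 1 base later has a score of 72.7%, and that of mmu-miR-26b-3p has a score of 53%. The leading seed was carried by 6.01% and 5.04% of all reads in young mice and by 7.58% and 6.11% in old mice, which ranked 3 or 4 among 3925 seeds in each library. The 18-month libraries were higher without overlap (two-sided exact permutation p = 0.3333, the smallest possible), as for 17.6% of 952 seeds of at least 10 CPM, and 99.1% of these reads were members. Reads whose seed had a lower score than this one made up 15.2% and 14.9% of the libraries in young mice and 12.9% and 12.8% in old mice. The mean score over all reads was 57.7% and 57.9% in young mice and 58.1% and 58.4% in old mice, and with the members left out it was 58.6% and 58.7% in young mice and 59.3% and 59.4% in old mice.

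The 3′ end of the leading arms varied far more than the 5′ end. The isoforms below are shown because most reads and the largest differences between the ages fall on them. Each is given from 5′ to 3′, with bases that the hairpin does not encode in capitals.
miR-26a, full length: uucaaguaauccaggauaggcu
miR-26a, 1 base short: uucaaguaauccaggauaggc
miR-26a, 2 bases short: uucaaguaauccaggauagg
miR-26a, full length with U: uucaaguaauccaggauaggcuU
miR-26a, 1 base short with A: uucaaguaauccaggauaggcA
miR-26a, 1 base short with AA: uucaaguaauccaggauaggcAA
miR-26a, 3 bases short: uucaaguaauccaggauag
miR-26b, 1 base longer: uucaaguaauucaggauagguu
miR-26b, reference length: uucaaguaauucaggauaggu
miR-26b, 1 base longer with U: uucaaguaauucaggauagguuU
miR-26b, 1 base longer with A: uucaaguaauucaggauagguuA
miR-26b, 1 base short: uucaaguaauucaggauagg
The first 5 forms of miR-26a and the 5 forms of miR-26b are the most abundant of each, and the other 2 of miR-26a are among its 3 largest rises.

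For miR-26a the full-length form led. It had 25218 and 21155 CPM in young mice and 33184 and 25396 CPM in old mice, and made up 44.2% of the name over all libraries. The form 1 base short had 15050 and 12485 CPM in young mice and 16468 and 13667 CPM in old mice, which overlap. The form 2 bases short had 8576 and 7195 CPM in young mice and 10607 and 8654 CPM in old mice. The first 5 forms together held 90.0% of the reads. A leading sequence of 44.2% ranked 64 of 109 names, against a median of 47.0%.

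For miR-26b the leading form was 1 base longer than the RefSeq mature sequence. It had 1482 and 1351 CPM in young mice and 1520 and 1485 CPM in old mice, or 57.6% of the name, and the reference form made up 21.7%. Templated reads longer than the reference were 60.2% and 62.7% of miR-26b in young mice and 55.0% and 57.9% in old mice. They were lower in old mice without overlap, as in 28% of the 157 names with enough such reads. The reference form took 21.2% and 18.6% in young mice and 23.8% and 22.2% in old mice. Untemplated U on the reference form would give the leading form, so the longer reads counted as templated may include it.

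**Figure D2:**
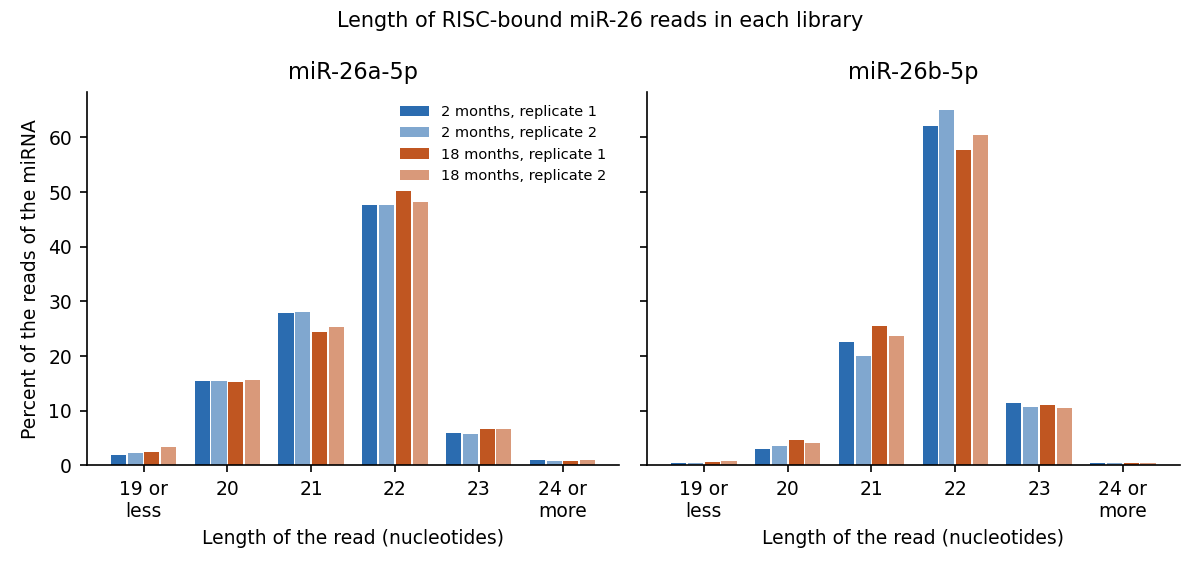
Percent of the reads of each leading arm by length in nucleotides, in 4 libraries (blue 2 months, orange 18 months, paler bars for replicate 2). Reads of 21 nt were 27.9% and 28.1% of miR-26a in young mice and 24.5% and 25.2% in old mice, while those of miR-26b were 22.6% and 20.01% in young mice and 25.5% and 23.7% in old mice.

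The summed share of templated reads with a shortened 3′ end was lower in old mice for miR-26a and higher for miR-26b. Templated reads with a shortened 3′ end made up 43.0% and 43.1% of miR-26a in young mice and 39.6% and 41.4% in old mice. The means were 43.1 ± 0.0394% (SD, n = 2) in young and 40.5 ± 1.27% (SD, n = 2) in old mice. A lower share without overlap was found in 6.39% of 219 names, and a higher one in 37%. In miR-26b such reads made up 3.15% and 3.53% in young mice and 4.81% and 4.32% in old mice, higher without overlap. In a limma fit of the log2 ratio of shortened to other reads over these names, miR-26a changed by -0.15 with an SE of 0.20 (adjusted p = 0.838) and miR-26b by 0.47 with an SE of 0.25 (adjusted p = 0.616), so neither passed. Whether the 2 miRNAs differ from each other in this change was not tested. Not all short reads of miR-26a were a lower share in old mice. Its reads of 19 nt or less were 1.97% and 2.28% in young mice and 2.51% and 3.29% in old mice. They were higher without overlap, as in 36.9% of 149 names. Shortened forms that carry an A tail were counted as tails and are outside the shortened share.

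A tails ended a larger share of miR-26a reads in each old library than in each young one. They were on 6.11% and 6.43% of its reads in young mice and on 7.74% and 7.73% in old mice (6.27 ± 0.225% against 7.73 ± 0.00729%, SD, n = 2 each). The two-sided exact permutation p was 0.3333, the smallest possible, and 34.7% of 190 names were likewise higher without overlap. On miR-26b the share was 7.19% and 6.11% in young mice and 8.16% and 7.14% in old mice, which overlap. In the limma fit of log2 ratios the change was 0.32 with an SE of 0.17 for miR-26a (adjusted p = 0.583) and 0.22 with an SE of 0.20 for miR-26b (adjusted p = 0.737), beside a median of 0.13 over the 190 names. The 2 levels were close to each other, at ranks 60 and 58 of the 190 names.

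U tails over all ends of miR-26a overlapped between the ages. They ended 4.35% and 4.17% of miR-26a in young mice and 4.17% and 4.32% in old mice. On miR-26b they ended 5.12% and 5.43% in young mice and 4.36% and 4.95% in old mice, lower without overlap, as in 19.2% of 172 names. Counting every untemplated end, tails were on 12.03% and 11.9% of miR-26a in young mice and 13.7% and 14.04% in old mice, higher without overlap as in 29.2% of 219 names. Untemplated U on the form 1 base short of miR-26a gives the full-length sequence and cannot be seen. In miR-26b, U on the form 1 base short gives the reference form, and U on the reference form gives the leading form. The U tails counted are therefore those past the longest match to the hairpin. On the full-length end of miR-26a and the leading end of miR-26b they may include runs of U begun on a shorter end.

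**Figure D3:**
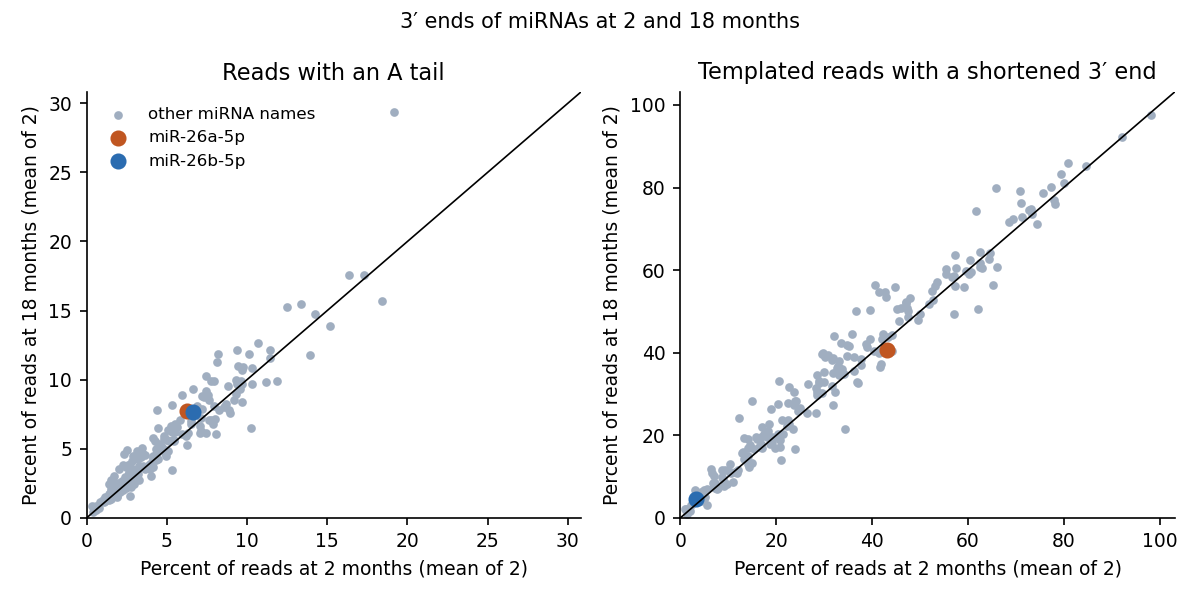
Share of reads in young mice (x axis, mean of 2 libraries, percent) against 18 months (y axis) for every name with enough reads, with miR-26a in orange, miR-26b in blue and a line of equality. In the left panel (A tails) both points lie above the line, and in the right panel (templated reads with a shortened 3′ end) miR-26a lies below it, at 43.1% and 40.5%, and miR-26b just above it.

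The A tails of miR-26a depended on where the templated part ended. Among untailed and A-tailed reads whose templated part ended 1 base short, A tails were on 11.6% and 10.9% in young mice and on 15.9% and 15.4% in old mice. The means were 11.3 ± 0.485% and 15.7 ± 0.345% (SD, n = 2 each), a difference of 4.42 percentage points that stayed between 4.08 and 4.77 when any library was left out. Over all names, 26.2% of 363 ends with enough A tails were likewise higher without overlap, with a median difference of 0.38 points. On the full-length end A tails were on 2.68% and 2.77% in young mice and on 3.30% and 3.25% in old mice, which did not overlap. On the end 2 bases short they were on 7.03% and 10.3% in young mice and on 8.74% and 9.05% in old mice, which overlap. On the end 3 bases short they were on 14.1% and 11.2% in young mice and on 16.4% and 13.1% in old mice, which overlap. On the end 4 bases short, the rarest of these, they were on 13.8% and 13.8% in young mice and on 17.9% and 20.7% in old mice.

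Tails of more than 1 A on the form 1 base short of miR-26a were on 1.80% and 1.20% in young mice and on 2.91% and 2.89% in old mice, without overlap as in 39.5% of 119 ends. U on the full-length end of miR-26a was on 7.99% and 7.72% in young mice and on 7.29% and 7.79% in old mice, which overlap. U on the end 2 bases short was on 2.71% and 2.56% in young mice and on 2.78% and 3.12% in old mice, higher without overlap as in 13.5% of 274 ends. On miR-26b, A tails on the end 1 base short were on 11.1% and 10.5% in young mice and on 12.3% and 13.4% in old mice, and on its leading end on 7.34% and 5.54% in young mice and 7.83% and 6.50% in old mice. The first of these was higher without overlap, as for 26.2% of 363 ends with enough A tails, and the second overlapped.

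An A at position 22 of miR-26a can be read as a tail on the form 1 base short or as the substitution U22A in the full-length form. Its level was 7.42% of the full-length form, and among the 66 possible substitutions of that form the next was U22G, at 0.238%.

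**Figure D4:**
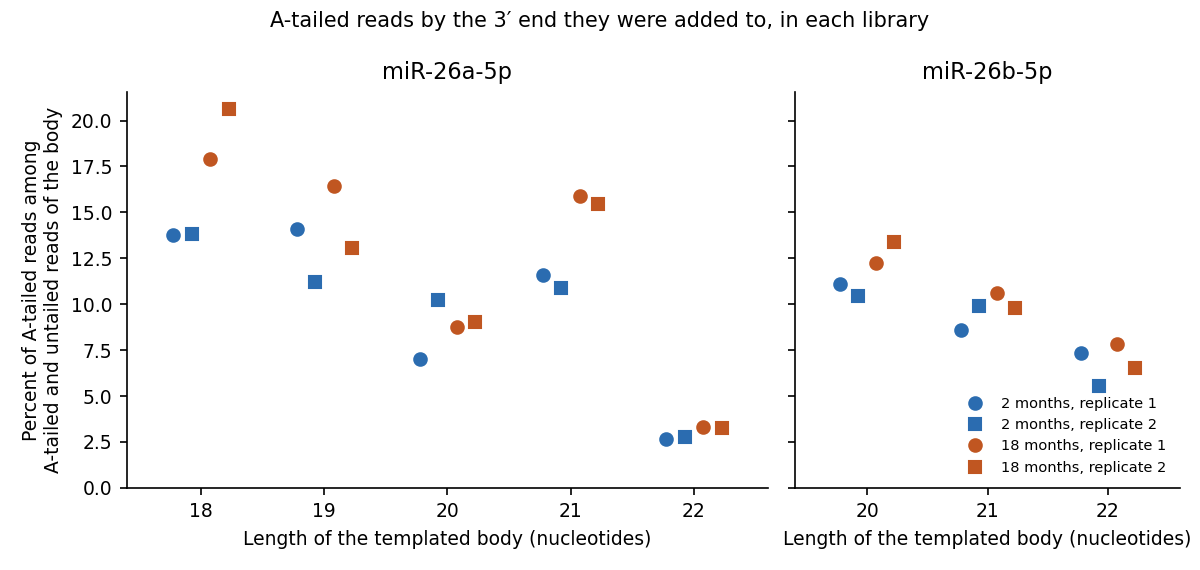
Percent of A-tailed reads among untailed and A-tailed reads, by length of the templated part in nucleotides, for miR-26a (left) and miR-26b (right), with circles and squares for replicates 1 and 2, blue for 2 months and orange for 18 months. For the 21 nt part of miR-26a the 18-month points are at 15.9% and 15.4% and the 2-month points at 11.6% and 10.9%.

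Single sequences of miR-26a with low p were all higher in old mice. Of its 534 sequences, 164 had a mean of at least 1 CPM and entered the fit, and they held 99.8% of its reads. In limma 26 of them rose at an unadjusted p under 0.05 and 0 fell, a share of 15.9% against 5.87% of all 14287 sequences. After adjustment 0 of the 164 passed (lowest adjusted p 0.233), beside 0.042% of all sequences. By edgeR 22 of the 164 rose at an unadjusted p under 0.05, beside 819 of all 14287 sequences. By DESeq2 17 of the 164 rose, beside 592 of the 14287. In both, 0 of the 164 passed after adjustment. The log2 change was above 0 for 143 of the 164, with a median of 0.29 beside -0.01 for all sequences. These sequences share the libraries and the log2 change of their name, 0.31, so they are not separate observations. The count depended on single libraries. Without replicate 2 of the young mice it was 5, or 3.05% of the 164 beside 5.56% of all sequences in the same fit, so that no excess over all sequences was left. Without replicate 1 of the old mice it was 10, or 6.10% beside 4.36%. Without replicate 2 of the old mice it was 14, or 8.54% beside 4.17%, and without replicate 1 of the young mice it was 28, or 17.1% beside 5.9%.

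Of 66 sequences in the fit with tails other than A or U alone, such as AU, 10 were called. For the whole name it was 26 of 164. The median log2 change of the 66 was 0.37. The share of such tails called over all miRNAs was not computed, so this count is a description and no result about these tails. A mismatch in the last 4 bases was counted as a tail. The class therefore also holds substitutions of the full-length form, such as G19A and G20A. The A-tailed forms held 9 of the 26. Of 20 A-tailed sequences of miR-26a in the fit, 9 were thus called, and their median log2 change was 0.61. Over all miRNAs with a hairpin, 12.2% of 1246 A-tailed sequences rose, with a median of 0.09. This comparison includes the change of the name itself. As a log2 ratio to the other reads of miR-26a, A tails changed by 0.32 (limma adjusted p = 0.583). The median of that change over 190 names was 0.13. Of the 3 templated forms that were 3 or more bases short 2 rose, against 11.9% of 453 such sequences of all miRNAs. Among the 11 templated forms that were 1 or 2 bases short 0 were called in either direction, and the median was 0.13.

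The form 1 base short with A had the largest rise in CPM among the called sequences. It had 1698 and 1377 CPM in young mice and 2624 and 2087 CPM in old mice, a log2 change of 0.61 with an SE of 0.27 (limma unadjusted p = 0.0483, adjusted p = 0.489). The form 3 bases short had 982 and 952 CPM in young mice and 1598 and 1724 CPM in old mice, a log2 change of 0.78 with an SE of 0.26 (limma unadjusted p = 0.0133, adjusted p = 0.378). The form 1 base short with AA had 269 and 149 CPM in young mice and 489 and 401 CPM in old mice, a log2 change of 1.14 with an SE of 0.34 (limma unadjusted p = 0.0083, adjusted p = 0.336). The rule that chose these 3 required an unadjusted p under 0.05 and no overlap, and none passed after adjustment.

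Reads of 19 nt or less made up 1.97% and 2.28% of miR-26a in young mice and 2.51% and 3.29% in old mice. They were higher without overlap, as in 36.9% of 149 names. On miR-26b they made up 0.517% and 0.447% in young mice and 0.684% and 0.710% in old mice. The gel cut began at 19 nt, so shorter reads lie outside the range that was selected.

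**Figure D5:**
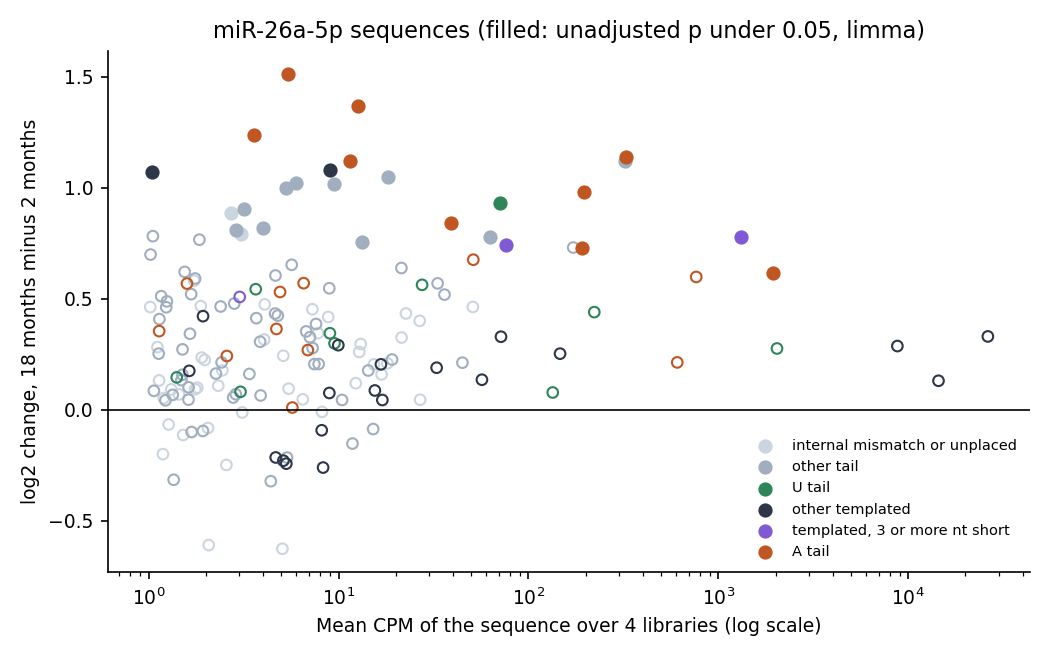
log2 change from 2 to 18 months (y axis) against mean CPM on a log axis for the 164 sequences of miR-26a in the fit, coloured by the kind of 3′ end and filled where the unadjusted limma p was under 0.05. All 26 filled points lie above 0, and 9 of them are A-tailed.

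miR-26b had fewer sequences with enough reads. Of its 125 sequences 33 entered the fit, 2 rose at an unadjusted p under 0.05, 0 fell and 0 passed after adjustment. This share of 6.06% is near the 5.87% of all sequences and is no result about miR-26b, so the 2 are given as a description. The first was the 19 nt form given here.
miR-26b, 2 bases short: uucaaguaauucaggauag
It had 8.20 and 6.15 CPM in young mice and 15.04 and 15.4 CPM in old mice, a log2 change of 1.002 (limma unadjusted p = 0.0126, adjusted p = 0.374). The second was the form 1 base short with A, at 7.63 and 6.15 CPM in young mice and 13.6 and 11.4 CPM in old mice, a log2 change of 0.78 (limma unadjusted p = 0.0405, adjusted p = 0.469). Its leading form changed by 0.09 with an SE of 0.25 (limma adjusted p = 0.930). Of the 9 sequences of mmu-miR-26b-3p 2 entered the fit and 0 were called by limma at an unadjusted p under 0.05.

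Some reads named miR-26b carried bases of both paralogs. Reads with U at position 11, as in miR-26b, and C at position 21, as in miR-26a, had 42.5 and 44.3 CPM in young mice and 60.4 and 48.4 CPM in old mice, or 1.69% to 2.14% of the name. The most abundant full-length one, at 22.3 to 30.7 CPM, is the full-length form of miR-26a with C11U, and its level was 0.0978% of that form. Of 57 substitutions at positions 2 to 20 of the form it ranked 3, the highest being U2C at 0.102%, and the median was 0.0126%. Reads named miR-26a with C at position 11 and U at position 21 had 264 and 209 CPM in young mice and 356 and 321 CPM in old mice, and most of them were the form 2 bases short with a U tail. Reads with a base of each paralog cannot be assigned with certainty, and how far they move the values of miR-26b was not tested.

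The profile of the leading arms over the 4 libraries was compared with 273 names of at least 100 CPM, by the distance between centred log2(CPM + 1) values. The name nearest to mmu-miR-26a-5p was mmu-miR-26b-5p, at a distance of 0.183, followed by mmu-miR-222-3p, mmu-miR-181b-5p, mmu-miR-652-3p and mmu-miR-30d-5p. The median distance to miR-26a was 0.739. The names nearest to mmu-miR-26b-5p were mmu-miR-93-5p, mmu-miR-1249-3p, mmu-miR-652-3p, mmu-miR-219a-2-3p and mmu-miR-25-3p, at distances of 0.101 to 0.180, with miR-26a at rank 7. All points come from the same 4 libraries, and the distances are a description.

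Other miRNAs tied to REST and the small phosphatases were set beside miR-26. Of the 8 arms of miR-124, miR-9, miR-132 and miR-212, which act in neurons or target parts of this circuit, 0 rose and 1 fell at an unadjusted p under 0.05 in limma, and their median log2 change was -0.27 beside -0.22 for all names. A fall was called for 12.1% of all 456 names, so 1 of 8 is near the background. The one that fell was mmu-miR-124-5p, with 768 and 641 CPM in young mice and 462 and 508 CPM in old mice, a log2 change of -0.53 (limma unadjusted p = 0.0446, adjusted p = 0.287). mmu-miR-124-3p, the leading arm, had 104115 and 107034 CPM in young mice and 98222 and 69405 CPM in old mice (limma adjusted p = 0.472). Besides mmu-miR-124-5p, the arms mmu-miR-124-3p, mmu-miR-132-5p and mmu-miR-212-3p were lower in old mice without overlap, and the remaining arms overlapped. The share of all names lower without overlap was not computed, so this is a description.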

How the data were processed

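The authors de-multiplexed, trimmed (Trim Galore, per the labels, version not given in the sources used here) and cleaned the reads, removed rare ones, matched the rest by BLAST to mouse small RNAs, and deposited CPM per sequence and library. To each seed the authors added a viability score in percent. A deposited signal column of summed CPM was not used for tests. Depth is given by whole reads, which were recovered for 100% of nonzero CPM values within 0.0545 to 0.0557 reads. Scaled to an equal total in each library, CPM hides differences in total RISC content. The labels give 250 mg of tissue, and the methods a smaller mass per pull-down.

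CPM was summed by miRNA name. Sequences were placed on RefSeq hairpins, with up to 5 nt of slack at each end. The templated part needed at least 14 nt, and tails could be up to 4 nt. A mismatch within the last 4 nt was thus counted as a tail. Of 1029 names, 814 had a hairpin (82.3% of named CPM). limma 3.58.1 with a trend (R 4.3.3) took log2(CPM + 1) and age alone, in a two-sided test, for names of at least 10 and sequences of at least 1 mean CPM, with Benjamini-Hochberg adjustment over all of them. Shares and ratios were compared by exact permutation. Isoform shares over names needed a mean of 100 CPM and 5 CPM with the feature. The fits of log2 ratios (0.5 CPM added) were chosen after seeing the data. Alternatives used edgeR 4.0.16 and DESeq2 1.42.0 on recovered reads, other filters and pseudocounts, rescaling, the replicate block and leaving out each library. On simulated reads with 4-fold changes, limma at an unadjusted p under 0.05 recovered 100% of changed names and called 3.91% of the unchanged among 456 names. For 14287 sequences these were 90.5% and 5.10%, and after adjustment 46% of changed sequences were recovered. Smaller changes, such as those of miR-26, were not simulated, so recovery at that size is not known. Python 3.11.15, numpy 2.4.6, pandas 2.3.3 and matplotlib 3.10.9 were used.

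Members and lists were chosen with earlier results of these data known. Named were the members and other miR-26 names, the 5 most abundant sequences of each leading arm, the 3 largest rises and falls among sequences that limma called unadjusted at 0.05 and whose ages did not overlap, and the 5 nearest profiles. Coordinates are on GRCm38 (GENCODE, RefSeq).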

Additional observations from a re-analysis of the deposited data

Results flagged for a closer look

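Reads with no miRNA name lay on miR-26 hairpins according to the table's own hairpin annotation, outside the names that the comparisons used, and above 3 reads in each library. For mmu-miR-26a-5p there were 433 such sequences, with a mean of 707.24 CPM (654 and 588 CPM at 2 months, 873 and 714 CPM at 18 months), or 1.14% to 1.22% of the named reads. For mmu-miR-26b-5p there were 83 such sequences, with a mean of 30.4748 CPM (30.5 and 27.7 CPM at 2 months, 32.6 and 31.1 CPM at 18 months). When they were added to the names, an alternative chosen after seeing the data, the log2 change with age was 0.31 for miR-26a and 0.21 for miR-26b.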

How the results depend on the processing

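Precision is limited by 2 libraries per age, with mmu-miR-26b-3p also limited by 48 to 96 reads. Of 143 alternative values for 19 results, 92 lay within 1.5 times the value reported and 3 had the opposite sign. The log2 changes of the leading arms did not pass an unadjusted p of 0.05 under any alternative run, with lowest and highest values of 0.15 and 0.47 for miR-26a and 0.11 and 0.30 for miR-26b when a library was left out. The miR-26a sequences that rose numbered 17 by DESeq2 and 11 at a minimum of 10 CPM (of 52 tested), and 5 to 28 when a library was left out. Those of miR-26b numbered 1 by DESeq2, 1 at that minimum, 8 after rescaling, and 0 to 2 when a library was left out. Over all sequences, 592 of 14287 rose by DESeq2 and 252 of 3141 rose at the minimum of 10 CPM. Rescaling also moved the calls over all sequences from 838 higher and 605 lower to 1344 and 307. With each sequence counted once, every share of A tails, untemplated tails or shortened ends differed by 0 percentage points, because each sequence of at least 1 CPM was present in every library. Measured from its leading form, the shortened share of miR-26b differed by 4.34 percentage points. When a library was left out, the log2 change of mmu-miR-26b-3p lay between -0.39 and 0.035 (0.035 without 2 months replicate 2 and 0.010 without 18 months replicate 2), the difference in log2 ratio of miR-26a to miR-26b between -0.00297 and 0.20, and that of mmu-miR-26b-5p to mmu-miR-26b-3p between 0.07 and 0.75.

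When limma took the replicate number as a block, the log2 change of miR-26a was 0.31 (limma unadjusted p = 0.101, adjusted p = 0.327). That of miR-26b was 0.21 (limma unadjusted p = 0.280, adjusted p = 0.486). No call on a name changed. With the block, 23 of 164 sequences of miR-26a and 3 of 33 of miR-26b rose, beside 891 of all 14287. Same-numbered libraries had deviations that correlated at 0.18 over 456 names. They come from mice of different ages, and no link beyond the number is given in the sources used here.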
